A study of Mus musculus with 24 samples.

Results

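The 10 genes described here are Trp53, which encodes the transcription factor p53, its cell cycle target Cdkn1a, and 8 genes of the Bcl2 family that set the threshold for mitochondrial apoptosis: the antiapoptotic Bcl2, Bcl2l1 and Mcl1, the pore-forming effectors Bax and Bak1, and the proapoptotic BH3-only genes Bbc3, Pmaip1 and Bcl2l11. They were chosen by gene symbol, and all 10 were found, each once, among the 49705 entries of the expression table. All 10 passed the filter on low values, as did 21005 entries in all. RNA was measured in 24 libraries from optic vesicle (OV) organoids grown from the mouse embryonic stem cell line Rx-GFP K/I EB5, in which GFP was knocked into the Rax locus, with 3 libraries in each of 8 groups. The first 4 groups were live cells on Day 0, Day 1, Day 2 and Day 3, and the other groups were GFP-negative and GFP-positive live cells sorted on Day 4 and Day 5. All libraries came from this 1 line, and samples were taken from pools of 24 organoids seeded at 4500 cells. Both gates of a day were sorted from such pools, and the labels do not say which GFP-negative and GFP-positive libraries shared one. Stem cells were kept with LIF, and the labels give no treatment for Day 0 and OV organoid differentiation for later days, with Matrigel at 2% from Day 1. The sources differ on the medium: the labels name supplemented GMEM with 1.5% KOSR for differentiation, whereas the study's methods keep that medium for knockout organoids and give the initial organoids a chemically defined one without growth factors. The gates left some cells with low GFP in the GFP-negative fraction, so that fraction is not free of Rax-expressing cells.

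Mitochondrial apoptosis begins when Bax and Bak1 form pores in the outer mitochondrial membrane. Bcl2, Bcl2l1 (Bcl-xL) and Mcl1 hold these effectors in check, and the BH3-only proteins Bbc3 (Puma), Pmaip1 (Noxa) and Bcl2l11 (Bim) release them, with Noxa acting mainly on Mcl1. p53 raises transcription of Cdkn1a (p21), Bbc3, Pmaip1 and Bax after DNA damage, and stem cells are known to stand close to the apoptotic threshold. The comparisons below ask how RNA of these genes changed as cells left pluripotency (Day 0 to Day 3) and as they entered the eye field state (GFP-positive cells on Days 4 and 5).

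Values are normalized counts, that is, estimated reads per gene divided by a factor for each library. They summed to between 39849111 and 51587535 per library, from an estimated 37200000 to 54300000 reads. The first replicate of Day 0 stood apart: its Spearman correlation with the other Day 0 libraries was 0.953 and 0.954, against 0.979 to 0.993 for the 22 other pairs of replicates, and mitochondrial genes took 6.04% of its counts against 2.40% and 2.28%. That share was also split on Day 3, at 1.75%, 6.003% and 4.53%, and ran from 1.73% to 4.42% in the other 6 groups. Comparisons of the members with Day 0 are therefore also given without it, as are calls and counts of other genes that changed without it. The first replicate of Day 3, the one with the low mitochondrial share, had the highest Bax, Bbc3, Cdkn1a, Trp53, Mcl1, Bcl2l1 and Bak1 of the Day 3 libraries. It had the lowest Bcl2, Bcl2l11 and Pmaip1. The part of that share in these values was not tested. Markers followed the labels. The summed level of 8 pluripotency markers was 148716 to 188363 on Day 0, 38554 to 49696 on Day 3 and 498 to 633 in Day 5 GFP-positive cells. For 5 eye field markers the sum was 297 to 495 on Day 0 and 45893 to 47745 in Day 4 GFP-positive cells, against 8869 to 10833 in Day 4 GFP-negative cells. In bulk RNA, fewer cells of a type and less RNA per cell cannot be told apart.

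Upstream sequence was read for the members, since p53, itself encoded by a member, raises transcription of several of them. RefSeq windows of the 250 bases before a transcription start (build GRCm38.p6) matched 9 of the 10 genes, with 15 windows. Pmaip1 had no window and was not searched. The p53 half-site, searched by name on both strands, was in 3 of the 15 windows and in 7.13% of 32851 windows of all genes. A pair of half-sites 0 to 13 bases apart was in 1 of the 15, upstream of Cdkn1a, and in 0.0639% of all windows. The forkhead motif GTAAACA, searched on both strands, was in windows of Bcl2l11 and Bbc3 and in 3.17% of all windows. The E-box CACGTG, searched in the same way, was in 2 of the 15 windows, of Bbc3 and Bax, and in 6.02% of all windows. The 4 windows below are shown because Cdkn1a, Bax and Trp53 hold the half-sites and because Bcl2l11 and Cdkn1a later differed between the sorted gates. All are written in the direction of the gene, and capitals mark the half-sites in the first 3 and the forkhead motif in the last. A match is a match of letters only.
Cdkn1a, chr17:29090729-29090978, plus strand: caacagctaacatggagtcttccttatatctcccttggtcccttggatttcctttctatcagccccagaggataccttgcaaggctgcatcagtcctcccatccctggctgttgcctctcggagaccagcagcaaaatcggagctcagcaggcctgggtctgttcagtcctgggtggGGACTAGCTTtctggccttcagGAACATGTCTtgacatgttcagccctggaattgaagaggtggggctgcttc
Bax, chr7:45466899-45467148, minus strand: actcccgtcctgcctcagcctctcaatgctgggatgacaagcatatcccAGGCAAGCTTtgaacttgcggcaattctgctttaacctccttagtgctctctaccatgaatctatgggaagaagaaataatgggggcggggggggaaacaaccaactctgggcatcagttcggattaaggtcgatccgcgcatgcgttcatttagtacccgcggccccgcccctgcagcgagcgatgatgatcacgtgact
Trp53, chr11:69580109-69580358, plus strand: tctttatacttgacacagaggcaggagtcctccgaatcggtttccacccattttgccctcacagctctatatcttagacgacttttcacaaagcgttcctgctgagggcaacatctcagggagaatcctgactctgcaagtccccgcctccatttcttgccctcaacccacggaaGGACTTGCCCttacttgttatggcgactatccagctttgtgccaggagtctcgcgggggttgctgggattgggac
Bcl2l11, chr2:128125788-128126037, plus strand: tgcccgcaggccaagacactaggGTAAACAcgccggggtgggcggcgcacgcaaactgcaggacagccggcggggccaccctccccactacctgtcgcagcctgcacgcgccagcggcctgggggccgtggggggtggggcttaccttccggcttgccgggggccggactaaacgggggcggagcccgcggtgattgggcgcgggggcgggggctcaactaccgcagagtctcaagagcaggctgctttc

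The half-sites upstream of Cdkn1a began 73 and 51 bases before the start, that of Trp53 75 bases and that of Bax 201 bases before it. The forkhead motif of Bcl2l11 lay 227 bases before its start. Among the 21 other p53 target genes with a window, 8 had a half-site in it (Aen, Ccng1, Ei24, Gadd45a, Mdm2, Polk, Rps27l and Sesn1) and none had the pair. Many known p53 sites lie outside such short windows.

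**Figure D1:**
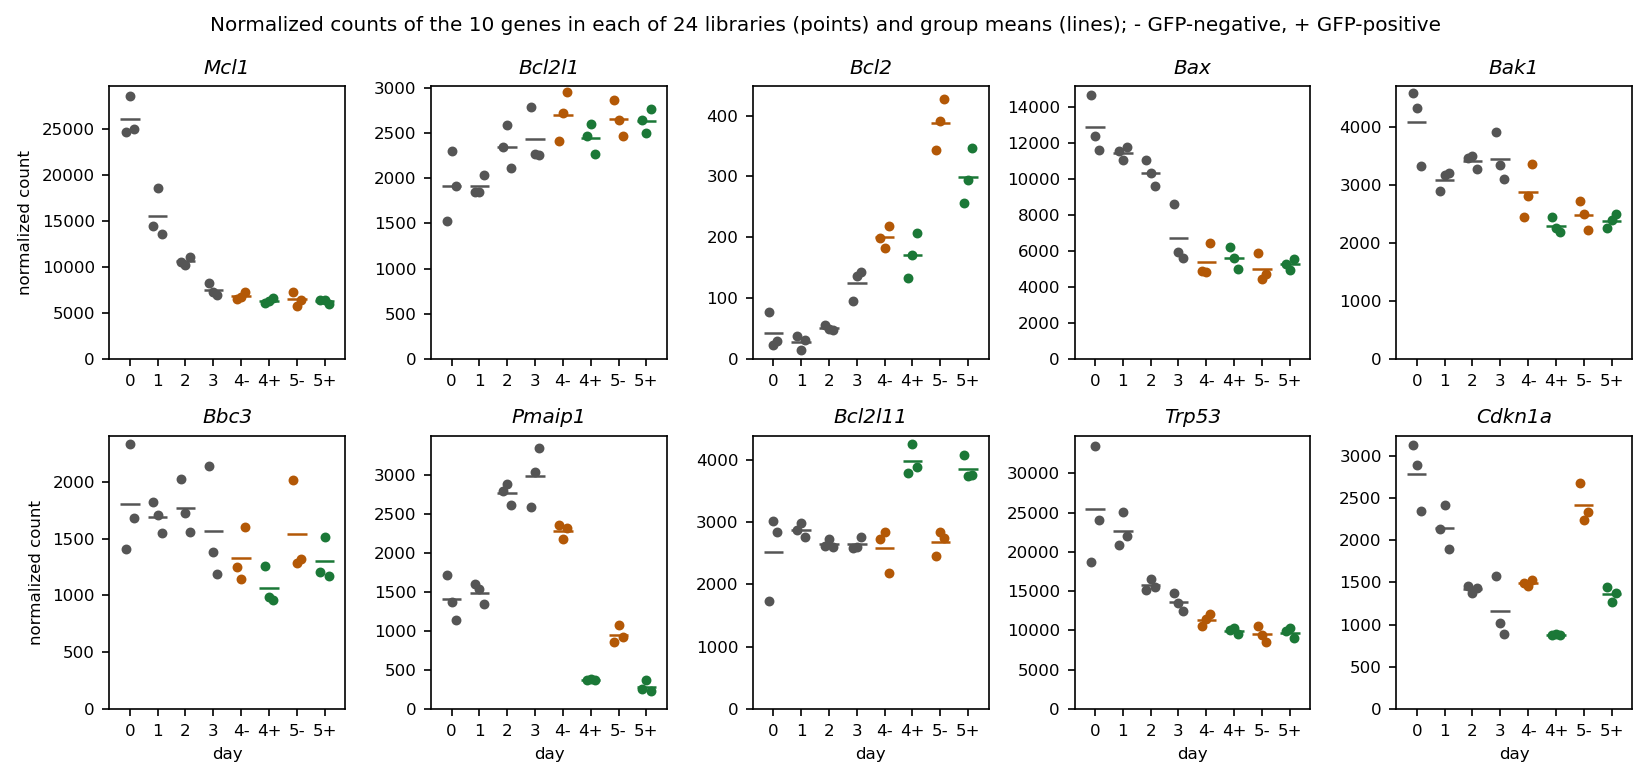
Normalized counts (vertical axes, linear from 0) of the 10 genes against day, with a point for each of the 3 libraries per group and a line at the mean; grey marks unsorted live cells, brown GFP-negative and green GFP-positive cells. Mcl1, Bax and Trp53 fell over the first days while Bcl2 rose, and Pmaip1 stood highest on Day 3 and lowest in GFP-positive cells.

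The members differed widely in level. Per kilobase of coding length, the mean normalized count on Day 0 was 26168 for Mcl1, 22249 for Bax and 21673 for Trp53. It was 6484 for Bak1, 5801 for Cdkn1a, 4512 for Pmaip1 and 4275 for Bcl2l11, then 3108 for Bbc3, 2722 for Bcl2l1 and 61.7 for Bcl2. Bcl2 was the lowest and Mcl1, Bax and Trp53 the highest also per kilobase of transcript, where Bax came first with 14858. On that scale Bbc3 (997) and Bcl2l1 (744) stood above Pmaip1 (516) and Bcl2l11 (502). In Day 5 GFP-positive cells Bcl2 was again the lowest per kilobase of coding length at 421, next to Pmaip1 at 922, and the highest levels were 9073 for Bax, 8284 for Trp53, 6522 for Bcl2l11 and 6312 for Mcl1. Per kilobase of transcript Mcl1 (1839), Bcl2l1 (1026) and Bak1 (1001) stood above Bcl2l11 (765) there.

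As cells left pluripotency, Mcl1 fell and Bcl2 rose. Mcl1, a short-lived antiapoptotic protein, was at 24635, 28529 and 25024 normalized counts on Day 0 and at 14494, 18598 and 13609 on Day 1. It was at 10579.8, 10258 and 11070 on Day 2 and at 8309, 7254 and 6975 on Day 3. No library of any day overlapped with one of the day before, as for 20.3%, 45.7% and 40.3% of all entries in turn. From Day 0 to Day 3 the change in log2 normalized count was -1.80 (SE 0.113, limma, Benjamini-Hochberg adjusted p = 6.67e-11), a 3.47-fold fall, and each daily step also passed an adjusted p of 0.05, with -0.75 (adjusted p = 1.49e-04), -0.54 (adjusted p = 0.00205) and -0.50 (adjusted p = 0.00457) in turn. Without the first Day 0 library the change was -0.79 to Day 1 and -1.83 to Day 3. In a fit of only Day 0 and Day 1 the first step did not pass (adjusted p = 0.158).

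Bcl2, the founding antiapoptotic member, moved the other way from a low level. On Day 0 it was at 78.4, 23.7 and 29.6 normalized counts, with the highest value in the library that stood apart. Day 1 gave 37.9, 14.9 and 31.7, and Day 2 gave 56.2, 50.1 and 47.4. Day 3 reached 95.4, 137 and 144, above every earlier library. Between Day 0 and Day 3 Bcl2 gained 1.67 in log2 count (SE 0.342, limma adjusted p = 4.40e-04), or 2.18 without the first Day 0 library (adjusted p = 2.34e-06). Its gain after Day 2 was 1.25 (adjusted p = 0.0170), and it did not pass without replicate 2 or 3 of either day (adjusted p = 0.0540 to 0.0727).

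Bcl2l1 rose by less. It was at 1528, 2294 and 1910 normalized counts on Day 0 and at 2784, 2261 and 2257 on Day 3, and the groups overlapped. The difference of 0.36 (SE 0.130, limma adjusted p = 0.0286) did not pass without the first Day 0 library (0.21, adjusted p = 0.147) or without the first Day 3 library (0.26, adjusted p = 0.142). Within each library, the ratio of Mcl1 to Bcl2l1 counts, which is not corrected for length, went from 13.9 ± 1.97 (SD, n = 3) on Day 0 to 8.21 ± 1.73, 4.57 ± 0.646 and 3.09 ± 0.112 on the following days. In the 4 sorted groups its means lay between 2.39 and 2.62.

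Of the effectors, Bax fell and Bak1 did not pass the test. Bax was at 14638, 12398 and 11609.6 normalized counts on Day 0, and at 8608, 5959 and 5585 on Day 3. The groups did not overlap, as for 42.0% of all entries. The change was -0.96 (SE 0.151, limma adjusted p = 2.52e-05), of which -0.64 came between Day 2 and Day 3 (adjusted p = 0.00631). The change from Day 0 was -0.86 without the first Day 0 library (adjusted p = 1.13e-04), and -1.15 without the first Day 3 library, the highest of its group. Bak1 was at 4590.5, 4336 and 3328 on Day 0 and at 3919, 3349 and 3105 on Day 3, with a difference of -0.23 (adjusted p = 0.151), or -0.14 without the first Day 0 library (adjusted p = 0.385).

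The 3 BH3-only members differed from one another. Pmaip1 was at 1717, 1371 and 1136 normalized counts on Day 0 and at 1598, 1531 and 1342 on Day 1. It then stood at 2787, 2878 and 2614 on Day 2 and 2581, 3039 and 3341 on Day 3. Every library of Days 2 and 3 lay above every library of Days 0 and 1. Between Day 1 and Day 2 Pmaip1 gained 0.89 (limma adjusted p = 4.28e-04), and Day 3 exceeded Day 0 by 1.10 (SE 0.158, adjusted p = 8.28e-06), or by 1.25 without the first Day 0 library. Bcl2l11 was at 1731, 3014 and 2835 on Day 0 and between 2589.8 and 2759.7 on Day 3, a difference of 0.11 (adjusted p = 0.580) that had the other sign without the first Day 0 library (-0.14, adjusted p = 0.247). Bbc3 was at 1410.1, 2336 and 1680.3 on Day 0 and at 2137, 1387 and 1190.1 on Day 3, with overlapping groups and a difference of -0.22 (adjusted p = 0.456), or -0.38 without the first Day 0 library (adjusted p = 0.177).

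Trp53 and Cdkn1a both fell. Trp53 was at 18748, 33513 and 24006 normalized counts on Day 0, and at 14829.5, 13445 and 12530.0 on Day 3. The groups did not overlap, as for 42.0% of all entries, and the change was -0.86 (SE 0.146, limma adjusted p = 5.56e-05). The lowest Day 0 value was that of the library that stood apart, and without it the change was -1.06. Cdkn1a, the inhibitor of cyclin-dependent kinases that p53 activates, was at 3124, 2889 and 2341 on Day 0, at 2134, 2415 and 1893 on Day 1, at 1454, 1370.3 and 1432 on Day 2 and at 1577, 1015 and 887 on Day 3. The change from Day 0 to Day 3 was -1.30 (SE 0.154, adjusted p = 7.06e-07), with -1.21 without the first Day 0 library and -1.54 without the first Day 3 library, which lay above all Day 2 libraries.

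Counted together, 7 of the 10 members passed an adjusted p of 0.05 between Day 0 and Day 3, 3 higher (Pmaip1, Bcl2 and Bcl2l1) and 4 lower (Mcl1, Bax, Trp53 and Cdkn1a). Of all 21005 entries tested, 43.6% passed, 21.1% higher and 22.6% lower. The study's stricter thresholds asked for a log2-fold-change of more than 1.5 either way at an adjusted p below 0.001, and 2 members met them (Mcl1 and Bcl2), as did 12.0% of all entries. Bcl2 did not meet them without replicate 2 or 3 of either day. The median log2 change was -0.23 over the members and -0.03 over all entries. By single days, 1 member passed an adjusted p of 0.05 from Day 0 to Day 1 (Mcl1; 10.0% of all entries). From Day 1 to Day 2, 4 members passed (Pmaip1 higher, Mcl1, Trp53 and Cdkn1a lower; 16.6% of all, 9.03% higher and 7.54% lower). Without the second Day 1 library Trp53 (limma adjusted p = 0.0913) and Cdkn1a (adjusted p = 0.0663) did not pass, and Trp53 did not without replicate 1 or 3 of Day 2 (adjusted p = 0.0629 and 0.0504). From Day 2 to Day 3, 3 passed (Bcl2 higher, Mcl1 and Bax lower; 14.4% of all, 7.46% higher and 6.99% lower). None of these daily steps passed the stricter thresholds for a member in limma, where 0.738%, 1.47% and 1.00% of all entries passed, although 3, 6 and 4 members had an unadjusted p under 0.05, as had 22.5%, 28.2% and 28.2% of all entries.

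**Figure D2:**
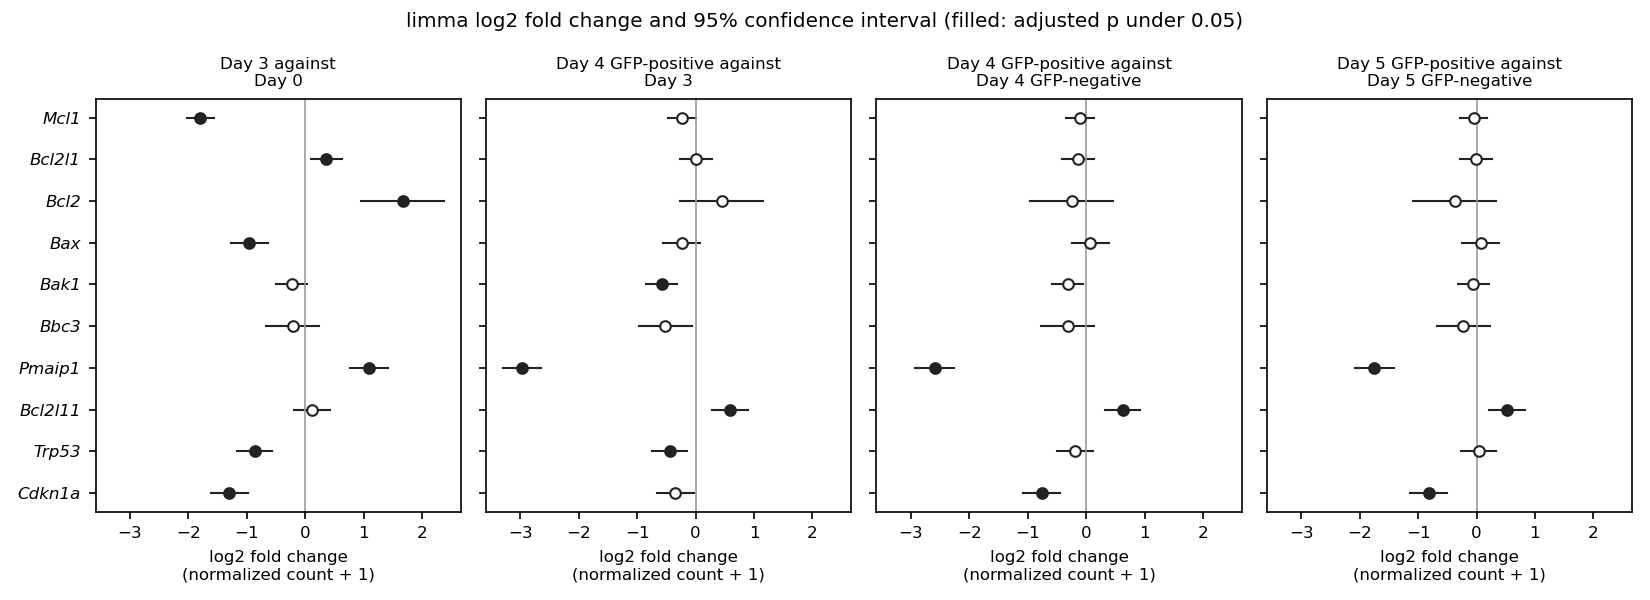
Log2-fold-change of each gene (horizontal axes, on log2 of the normalized count plus 1) from limma with its 95% confidence interval, in 4 comparisons with 3 libraries a group; filled points passed an adjusted p of 0.05. Mcl1 and Bcl2 changed most between Day 0 and Day 3, and Pmaip1 changed most in the comparisons with GFP-positive cells, with -2.98 against Day 3.

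The wider p53 pathway was described with lists of genes. Of 28 other p53 target genes, all of them tested, 19 were lower on Day 3 than on Day 0 at an adjusted p of 0.05 and none was higher, where 22.6% of all entries were lower. Their median log2 change was -0.64 against -0.03 over all entries. The count was 21 without the first Day 0 library and 12 in a fit of only the 2 groups. Past the stricter thresholds were 4, all lower: Gadd45a, a stress sensor in DNA repair and growth arrest, the epoxide hydrolase Ephx1, the secreted stress cytokine Gdf15 and the death receptor Fas. Gadd45a was at 3543, 3197.5 and 3225 normalized counts on Day 0 and at 651, 767 and 719.5 on Day 3. Ephx1 was at 409, 656 and 689 on Day 0 and at 166, 92.1 and 92.6 on Day 3. Both groups of each gene were apart, as for 42.0% of all entries, whereas Fas, at 39.4, 17.3 and 13.7 on Day 0, was highest in the library that stood apart. Without that library Fas changed by -1.52 (limma adjusted p = 0.00492) and no longer met the stricter thresholds, and Plk2, a stress-responsive kinase, met them at -1.56. Ddb2, a DNA damage recognition factor, then rose by 0.87 (limma adjusted p = 8.58e-05). Mdm2, the ubiquitin ligase that p53 induces and that degrades p53, fell by 0.92 (limma adjusted p = 1.36e-05), or by 1.18 without the first Day 0 library.

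Other lists were described in the same way, beside 21.1% of all entries that were higher and 22.6% that were lower. The lists share genes, so their counts are not independent. Mdm2, Sesn2 and Apaf1 of these lists were also among the p53 targets. Cdkn2a was both a regulator of p53 and an inhibitor of cyclin-dependent kinases. Atf3 was in the stress response and the immediate-early lists. Of 12 tested regulators of p53, 1 rose and 2 fell at an adjusted p of 0.05, and only Cdkn2a, which encodes the Mdm2 inhibitor ARF, passed the stricter thresholds, from 618, 224 and 212 on Day 0 to 89.6, 83.2 and 67.7 on Day 3. The highest of these was in the first Day 0 library, and without it the change of Cdkn2a was -1.44 (limma adjusted p = 0.00352), short of the stricter thresholds. The regulators then gave 3 lower and none higher at an adjusted p of 0.05, with Trp53bp1, which was the 1 that rose, at 0.22 (limma adjusted p = 0.0872). Of the 5 tested BH3-only genes beyond the members, 2 rose and 1 fell. Hrk, a BH3-only gene known from neuronal cell death, rose by 2.05 (SE 0.194, limma adjusted p = 2.83e-08), from 79.7, 80.4 and 60.2 normalized counts to 293, 323 and 298. Of 17 genes of the caspases, the apoptosome and their inhibitors, 6 rose and 6 fell. Casp8, the initiator caspase of death receptors, rose by 1.78 (adjusted p = 1.00e-06). The antiapoptotic Bcl2l10 was at 29.4, 22.9 and 21.4 on Day 0 and at 3.38 or less on Day 3, and the effector Bok did not pass. Of 6 other inhibitors of cyclin-dependent kinases 5 fell, 3 of them past the stricter thresholds (Cdkn2b, Cdkn2c and Cdkn2a), or 2 without the first Day 0 library, where Cdkn1b rose by 0.78 (limma adjusted p = 0.00180). Of 8 genes of the integrated stress response 6 fell and 1 rose. Without the first Day 0 library 5 fell, since the transcription factor Atf3 was then at -0.71 (limma adjusted p = 0.123) rather than -1.29 (adjusted p = 0.0165). Of 10 immediate-early and heat shock genes, which dissociation and sorting can induce, 7 fell, led by Junb at -2.83 (adjusted p = 5.18e-09). Of these 3 were past the stricter thresholds, or 5 without the first Day 0 library. Without it 7 fell as well, but with Fos (-1.81, limma adjusted p = 0.0453) in place of Atf3, and Egr1 was at -2.78 rather than -1.73. Markers of other cell types moved over the same days. The summed level of 6 surface ectoderm markers was 8444 to 16703 on Day 0 and 19176 to 21673 on Day 3, with 3 of 5 tested markers higher. That of 8 mesendoderm markers was 2037 to 3435 and then 3729 to 4024, with 5 higher, among them Mixl1 (3.25) and T (2.76), and 2 lower. That of 6 endothelial markers was 2729 to 5170 and then 1333 to 1493, with 3 lower and 1 higher. Its median was highest on Day 0, at 4471 against 3059 in Day 5 GFP-negative cells, so it need not count endothelial cells. The sum of 4 neuron markers was 9479 to 13739 and then 5044 to 5256, with Tubb3 (-1.95) and Stmn2 (-1.03) lower and Elavl3 (1.10) higher. That of 3 neural crest markers was 550 to 1758 and then 2399 to 2739, with Foxd3 higher (1.37). The part of the sorting genes and of these cells in the changes of the members and of the p53 target genes was not tested.

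**Figure D3:**
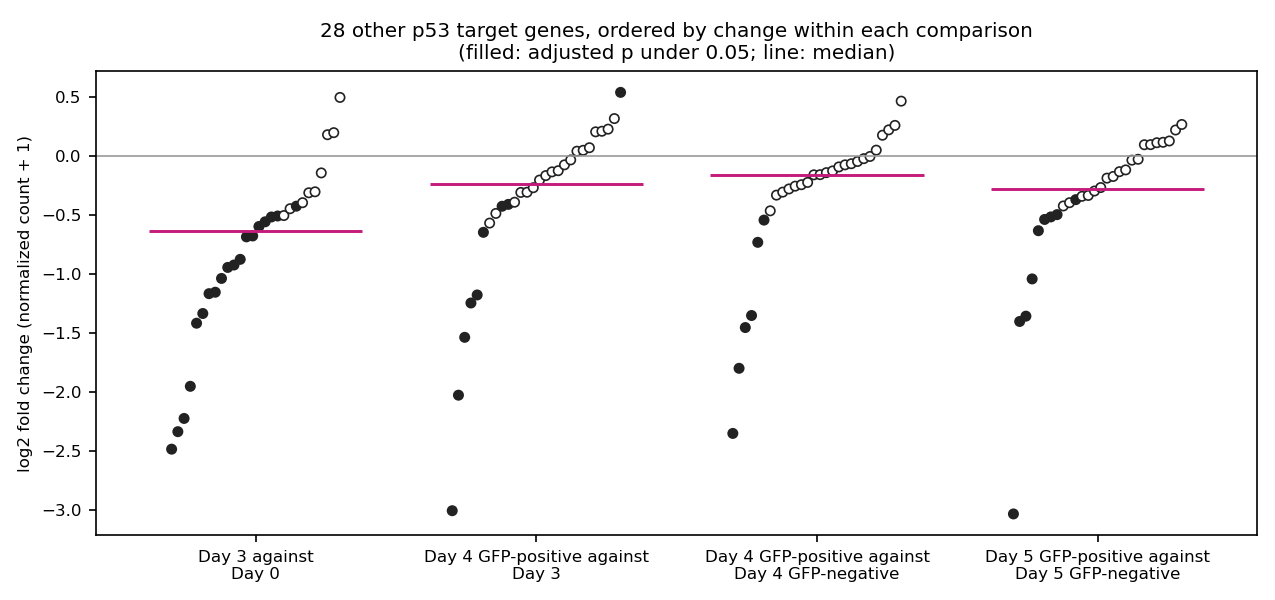
Log2-fold-change (vertical axis, on log2 of the normalized count plus 1) of 28 p53 target genes other than the members in 4 comparisons, ordered by change within each; filled points passed an adjusted p of 0.05 in limma and the line marks the median. Between Day 0 and Day 3, 19 genes were lower and the median was -0.64.

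On entry into the eye field state, Pmaip1 fell sharply. It was at 2581, 3039 and 3341 normalized counts on Day 3 and at 373, 390.2 and 366 in Day 4 GFP-positive cells, a change of -2.98 (SE 0.158, limma adjusted p = 4.01e-12) or a 7.88-fold fall. The groups were far apart. No other member passed the stricter thresholds in this comparison, where 10.7% of all entries did. At an adjusted p of 0.05, 4 members passed, against 37.9% of all entries. Bcl2l11 was higher (17.1% of all entries were) and Pmaip1, Bak1 and Trp53 were lower (20.9% of all). Day 3 cells were not sorted by GFP, and marker sums differed as well. They fell for pluripotency (38554 to 49696, then 1331 to 2694) and mesendoderm markers (3729 to 4024, then 358 to 798). Surface ectoderm, endothelial and neural crest sums fell too. Neural progenitor (25329 to 28707, then 42764 to 44158), eye field and neuron sums rose. The part of these cells in the changes of the members was not tested.

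Bak1 was at 3919, 3349 and 3105 on Day 3 and at 2459.9, 2255 and 2187 in Day 4 GFP-positive cells (-0.58, SE 0.128, limma adjusted p = 9.78e-04). The groups did not overlap, as for 54.4% of all entries. Trp53 changed by -0.45 (adjusted p = 0.0195), a call that was lost without the first Day 3 library (-0.38, adjusted p = 0.0783) or the third Day 4 GFP-positive library (-0.41, adjusted p = 0.0658). Bcl2l11 was the 1 member that rose, from 2589.8, 2606 and 2759.7 on Day 3 to 3781, 4258 and 3891, by 0.58 (SE 0.147, adjusted p = 0.00311). The difference of Mcl1 was -0.23 (adjusted p = 0.113) and that of Bcl2 0.45 (adjusted p = 0.337). Cdkn1a was at 1577, 1015 and 887 on Day 3 and at 883, 885 and 879.9 in Day 4 GFP-positive cells, and did not pass. Most of its difference lay in the first Day 3 library. Bbc3 was at 1257.0, 983 and 961 in Day 4 GFP-positive cells, overlapping with Day 3, and differed by -0.52 (adjusted p = 0.0652). This difference passed after quantile normalization (adjusted p = 0.0451) and without the first Day 0 (adjusted p = 0.0415), the third Day 3 (-0.70, adjusted p = 0.0249) or the first Day 4 GFP-positive library (-0.65, adjusted p = 0.0469). It is smaller without the first Day 3 library, which had the highest Bbc3 of its group (2137 against 1387 and 1190.1). Against the same Day 3 libraries, GFP-negative cells of Day 4 gave no member past an adjusted p of 0.05 in limma, where 18.5% of all entries passed; 3 members (Bak1, Cdkn1a and Pmaip1) had an unadjusted p under 0.05, as had 29.7% of all entries, and 2.88% of all entries met the stricter thresholds. Pmaip1 was at 2352, 2171 and 2319 there, a difference of -0.38 (adjusted p = 0.102, or 0.0462 without the first Day 0 library). Cdkn1a was at 1499, 1461 and 1533, a difference of 0.41 (adjusted p = 0.0689) that passed without the first Day 0 library (adjusted p = 0.0408), without the first Day 3 library (0.66, adjusted p = 0.00102) and with the replicate block (adjusted p = 0.0468).

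Between the gates, 3 members differed on both days, and in the same direction on each. On Day 4 they were 3 of 10 where 15.7% of all entries passed an adjusted p of 0.05, and on Day 5 they were 3 of 10 where 16.0% passed. Pmaip1 and Cdkn1a were lower in GFP-positive cells, as were 11.3% of all entries on Day 4 and 12.3% on Day 5, and Bcl2l11 was higher, as were 4.43% and 3.78%. Pmaip1 alone passed the stricter thresholds, which 3.96% of all entries passed on Day 4 and 5.01% on Day 5.

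Pmaip1 was at 2352, 2171 and 2319 normalized counts in Day 4 GFP-negative and at 373, 390.2 and 366 in Day 4 GFP-positive cells, a difference of -2.60 (SE 0.158, limma adjusted p = 2.46e-10) or 6.05-fold. On Day 5 it was at 859.6, 1080.4 and 919.6 in GFP-negative and at 257, 373 and 233 in GFP-positive cells, a difference of -1.75 (SE 0.158, adjusted p = 4.61e-08) or 3.36-fold. In a fit of only the Day 5 groups the adjusted p was 0.00119. The Day 5 GFP-negative level was itself lower than that of Day 4 by 1.26 on the log2 scale (adjusted p = 1.42e-05). In GFP-positive cells Pmaip1 changed by -0.42 between these days and did not pass. The change of the gate difference from Day 4 to Day 5, tested as an interaction, was 0.85 (SE 0.223, adjusted p = 0.0725). It passed without the first Day 0 library (adjusted p = 0.0179), without the third Day 5 GFP-positive library (adjusted p = 0.0427) and after quantile normalization (0.95, adjusted p = 0.0364). No member passed this test in the fit of all libraries, where 1.10% of all entries did, and Pmaip1 was the 1 member with an unadjusted p under 0.05, as 9.40% of all entries had.

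Cdkn1a was at 1499, 1461 and 1533 normalized counts in Day 4 GFP-negative and at 883, 885 and 879.9 in Day 4 GFP-positive cells. The difference was -0.76 (SE 0.154, limma adjusted p = 0.00118). On Day 5 it was at 2681, 2242 and 2329 in GFP-negative and at 1452, 1266 and 1378 in GFP-positive cells, a difference of -0.82 (SE 0.154, adjusted p = 4.96e-04). Both gates rose from Day 4 to Day 5, GFP-negative cells by 0.69 (adjusted p = 0.00565) and GFP-positive cells by 0.63 (adjusted p = 0.0101). Neither gate's libraries overlapped between the days, as for 34.1% of all entries in GFP-negative and 33.4% in GFP-positive cells. The fall of Cdkn1a over the first days was thus followed by a rise in either fraction. The sum of 10 immediate-early and heat shock genes rose too, from 6832 to 7251 on Day 4 to 7731 to 12148 on Day 5 in GFP-negative cells. In GFP-positive cells it was 6310 to 6514 and then 7040 to 12317. Their part in the rise of Cdkn1a was not tested.

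Bcl2l11 was at 2735, 2847 and 2189.6 normalized counts in Day 4 GFP-negative and at 3781, 4258 and 3891 in Day 4 GFP-positive cells, a difference of 0.63 (SE 0.147, limma adjusted p = 0.00432) or 1.54-fold. On Day 5 it was at 2453, 2843 and 2737 in GFP-negative and at 4079, 3734 and 3752 in GFP-positive cells, a difference of 0.53 (adjusted p = 0.0150). The Day 5 difference did not pass without the first library of either gate (0.47, adjusted p = 0.0704, and 0.49, adjusted p = 0.0630). All 6 GFP-positive libraries lay above the other 18 libraries. The 2 BH3-only genes thus differed between the gates in opposite directions. The ratio of Bcl2l11 to Pmaip1 counts within a library was 10.1 to 10.9 in Day 4 GFP-positive and 0.944 to 1.31 in Day 4 GFP-negative cells, and 10.02 to 16.1 against 2.63 to 2.98 on Day 5.

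**Figure D4:**
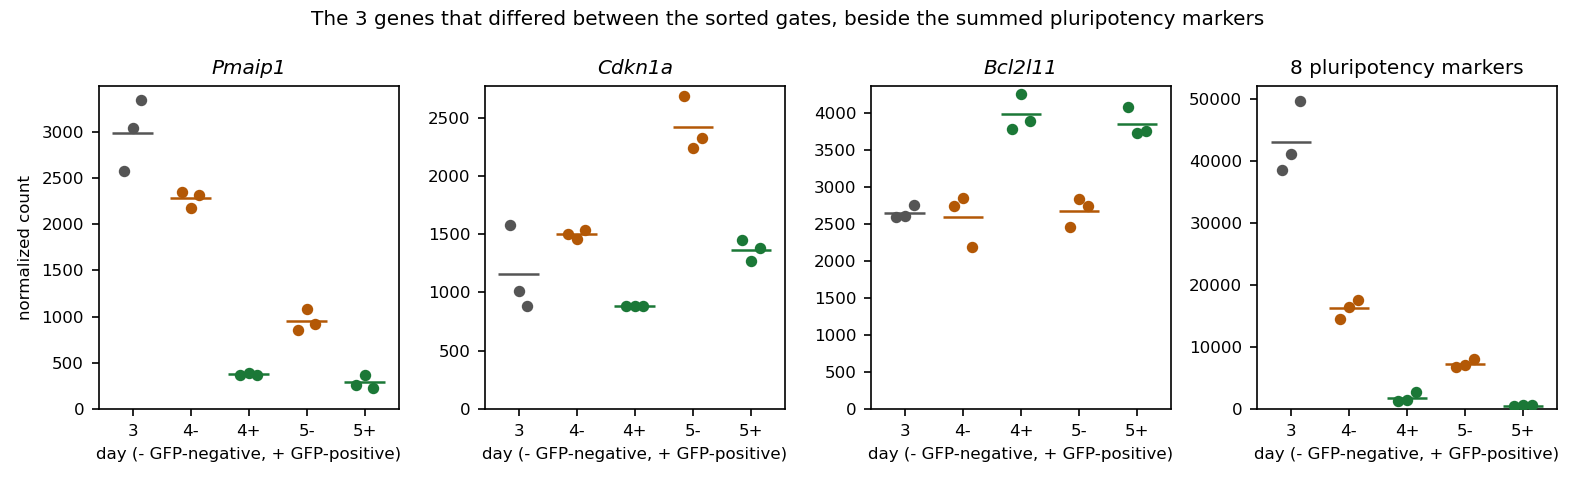
Normalized counts (vertical axes, linear from 0) of Pmaip1, Cdkn1a and Bcl2l11 and the sum of 8 pluripotency markers on Day 3 and in the GFP-negative and GFP-positive cells of Days 4 and 5, with a point for each of 3 libraries per group and a line at the mean. Pmaip1, Cdkn1a and the pluripotency markers were lower in GFP-positive cells on both days and Bcl2l11 was higher.

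The other 7 members did not pass between the gates, except that Bak1 on Day 4 passed without the first GFP-negative library of that day (-0.42, limma adjusted p = 0.0465). Their log2 differences lay between -0.32 and 0.07 on Day 4 and between -0.38 and 0.07 on Day 5. For Mcl1 the 95% interval of the difference was -0.34 to 0.14 on Day 4 and -0.29 to 0.19 on Day 5, and for Bcl2l1 it was -0.41 to 0.13 and -0.28 to 0.26. For Bcl2, whose counts were lower, the interval was wider, from -0.96 to 0.47 on Day 4 and from -1.09 to 0.34 on Day 5.

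Markers of other cells moved with these differences. Sums for several cell types were lower in GFP-positive cells. The sum of 8 pluripotency markers was 14584 to 17667 in Day 4 GFP-negative and 1331 to 2694 in GFP-positive cells, and 6810.1 to 8007 against 498 to 633 on Day 5. The sum of 8 mesendoderm markers was 7371 to 11059 against 358 to 798 on Day 4, and that of 6 endothelial markers 1719 to 2568 against 213 to 375. No marker of these 3 lists was at 0 in all 3 libraries of any group. For 6 surface ectoderm markers, of which 1 was at 0 in all libraries of both Day 4 gates, the sum was 10074 to 13917 against 4841 to 5454. Of these Dlx5 (-2.71), Epcam (-2.65) and Tfap2a (-1.95) were lower, and the keratins Krt8 and Krt18 did not pass. The 3 neural crest markers gave 822 to 946 against 188 to 235. Of these Foxd3 (-3.98) and Tfap2b (-3.27) were lower and Sox10 did not pass (-0.66, limma adjusted p = 0.332). The neural crest sum was higher on Day 2, at 3756 to 4468. Sums for 5 neural progenitor markers went the other way, at 26977 to 31366 in GFP-negative and 42764 to 44158 in GFP-positive cells on Day 4 and at 31698 to 32474 against 46029 to 55503 on Day 5. For 4 neuron markers the sum was 4464 to 5138 against 5565 to 6768 on Day 4 and 3148 to 3618 against 2667 to 2709 on Day 5. Of these 4 only Tubb3 passed between the Day 4 gates (1.00, limma adjusted p = 1.89e-06), and on Day 5 Tubb3 was higher and Stmn2 lower in GFP-positive cells. Of the 5 neural progenitor markers 3 were higher on Day 4 (Pax6, which is also an eye field gene, Sox2 and Nes), and on Day 5 Pax6 and Otx2 were higher and Sox1 was lower. The part of these cells in the values of Pmaip1, Cdkn1a and Bcl2l11 was not tested.

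Among the other p53 target genes 8 were lower and 1 (Btg2) was higher in Day 4 GFP-positive cells than on Day 3 at an adjusted p of 0.05 (13 lower without the first Day 0 library), where 20.9% of all entries were lower and 17.1% higher. Between the gates 6 of 28 were lower on Day 4, where 11.3% of all entries were, and 9 of 28 on Day 5, where 12.3% were, and none was higher. The Day 5 count was 5 without the second GFP-negative library. Plk2 was at 693, 659.8 and 668 normalized counts in Day 4 GFP-negative and at 239, 264 and 235 in GFP-positive cells. Ephx1 was at 112, 82.7 and 94.3 against 14.8, 37.0 and 34.9. Gdf15 was at 23.0, 19.3 and 20.1 in Day 4 GFP-negative cells and at 3.75 or less in GFP-positive cells of that day, a level of only a few reads. Mdm2 did not pass between the gates on Day 4 (-0.22, limma adjusted p = 0.346).

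In other lists, few genes passed the stricter thresholds between the gates. Trib3, a stress pseudokinase and 1 of 8 genes of the integrated stress response, was lower in GFP-positive cells by 1.65 on Day 4, at 94.95, 106 and 81.6 normalized counts against 296, 310.5 and 285. Birc3, an inhibitor of apoptosis that acts in NF-kappaB signalling, was at 27.8, 36.8 and 24.6 against 149, 146 and 137. Cdkn2a was at 9.22, 13.01 and 3.41 against 46.1, 43.7 and 52.7. Trp73, the p53 relative that is expressed in some embryonic epithelia and neurons, was at 23.2, 18.99 and 10.7 against 275, 213 and 209. The libraries of the gates did not overlap for these 4 genes, as for 38.3% of all entries. Cdkn1c, another inhibitor of cyclin-dependent kinases, was higher in Day 4 GFP-positive cells than on Day 3 by 2.03 (SE 0.220, limma adjusted p = 1.93e-07). In the same comparison Cdkn2a fell by 3.23 (limma adjusted p = 1.36e-06) and Cdkn2b by 2.06 (limma adjusted p = 1.80e-04), and both passed the stricter thresholds too. Of 10 immediate-early and heat shock genes, 2 were lower in GFP-positive cells on each day at an adjusted p of 0.05, beside 11.3% of all entries on Day 4 and 12.3% on Day 5, and none was higher.

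From Day 4 to Day 5, 1 member passed an adjusted p of 0.05 in GFP-positive cells (Cdkn1a; 9.80% of all entries) and 2 in GFP-negative cells (Cdkn1a and Pmaip1; 10.2% of all). None passed the stricter thresholds in limma, against 1.49% and 1.27% of all entries. An unadjusted p under 0.05 was reached by 3 members in each fraction, and by 20.3% and 22.9% of all entries. Bcl2 was at 134, 172 and 207 normalized counts in Day 4 GFP-positive and at 257, 294 and 347 in Day 5 GFP-positive cells. The groups did not overlap, as for 33.4% of all entries, and the difference was 0.82 (limma adjusted p = 0.165, 0.0344 without the first Day 0 library and 0.0492 in a fit of only the groups compared). In GFP-negative cells it was at 198, 183 and 219 and then at 343, 390.6 and 428, a difference of 0.95 (limma adjusted p = 0.0863, 0.0132 without that library and 0.00744 in a fit of only the groups compared), and 34.1% of all entries did not overlap there.

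Over the whole course, from Day 0 to Day 5 GFP-positive cells, 9 of 10 members passed an adjusted p of 0.05, against 61.4% of all entries (29.3% higher and 32.1% lower). Of these 3 rose (Bcl2 by 2.93, Bcl2l11 by 0.65 and Bcl2l1 by 0.48) and 6 fell (Pmaip1 by 2.30, Mcl1 by 2.05, Trp53 by 1.35, Bax by 1.29, Cdkn1a by 1.02 and Bak1 by 0.76). The exception was Bbc3, with -0.45 (limma adjusted p = 0.0766), and -0.62 without the first Day 0 library (adjusted p = 0.0225). Past the stricter thresholds were Bcl2, Pmaip1 and Mcl1, against 26.2% of all entries. In a fit of only these 2 groups the rises of Bcl2l11 (adjusted p = 0.0533) and Bcl2l1 (adjusted p = 0.0660) did not pass. Without the first Day 0 library the rise of Bcl2 was 3.44, that of Bcl2l11 0.40 and that of Bcl2l1 0.33, and all 3 passed an adjusted p of 0.05. The changes of the others were then -2.14 for Pmaip1, -2.09 for Mcl1, -1.55 for Trp53, which met the stricter thresholds, -1.19 for Bax, -0.93 for Cdkn1a and -0.67 for Bak1. The median log2 change was -0.89 over the members and -0.06 over all entries.

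The members varied together in part. Over the 24 libraries, which share the time course, Pearson correlations of log2 counts were 0.94 between Trp53 and Mcl1, 0.90 between Mcl1 and Bax and -0.94 between Trp53 and Bcl2, and that of Pmaip1 with Bcl2l11 was -0.77. For 6 members, group means spanned more than 1 on the log2 scale, and the genes most like each were named over the same libraries. Those of Pmaip1 were Ndrg2 (0.97), Cldn7 (0.96) and Crb3 (0.96), those of Mcl1 were Mylpf, Aplp1 and Rmnd5b (0.98 each), and those of Bcl2 were Wls (0.98), Dach1 (0.97) and Ano10 (0.97). Cdkn1a was most like Pim1 (0.96), Vim (0.95) and Nkx6-2 (0.92), Bax most like Atp5g1 (0.99), BC051226 (0.98) and Cisd1 (0.98), and Trp53 most like Fntb (0.98), Tigar (0.97) and Zswim1 (0.97).

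All 10 genes had the same start and end as in the GENCODE M21 annotation (build 38). Mcl1 lies at chr3:95658788-95663176, Bcl2 at chr1:106538178-106714274, Cdkn1a at chr17:29090976-29100727 and Bcl2l11 at chr2:128126038-128162547. Exons of 3 members overlap with those of another gene, and the strand setting of the counting was not given in the sources used here. Bak1 overlaps on the opposite strand with Ggnbp1 over 257 bases and with Gm50253 over 177 bases, which were at 22.9 to 224 and 146 to 515 normalized counts. Bax shares 140 bases with Gm45808 (at most 46.5), and Bcl2 overlaps on the opposite strand with D630008O14Rik (at most 3.65).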

How the data were processed

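RNA was poly(A)-selected, made into TruSeq libraries and sequenced. Per the labels, the authors quantified reads with kallisto 0.43.1 against mm10 and normalized them with DESeq2. The deposited values are a normalized signal per gene (estimated counts over a factor per library), in a table of 49705 entries, of which 12092 were at 0 throughout. Its 9 columns of the authors' own calls were not used. The reads behind the values were not recovered, since 45.5% to 76.5% of low values were within 0.1 of a whole multiple of 1 read, so no count model was run. Spread is between the 3 libraries of a group, which the study calls biological triplicates.

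Here log2(value + 1) of the 21005 entries with at least 10 in at least 3 libraries was analysed with limma 3.58.1 in R 4.3.3 (eBayes with trend, all 24 libraries, no block), with Benjamini-Hochberg adjustment within each of 12 contrasts, all of which share libraries with others. Fold changes of low genes are understated on this scale. Same-numbered libraries deviated with a mean correlation of -0.000542 over 28 pairs of groups, so the numbers were not taken as pairs. The members and gene lists were chosen with earlier results of these data known. All members are named, and of the lists the genes past the stricter thresholds (at most 4 per comparison, not all shown). Mdm2, Btg2, Bok, Ddb2, Trp53bp1, Cdkn1b, Atf3, Fos, Egr1, Plk2 and the markers of other cell types were named outside that rule, after their values were seen. In simulated data for the Day 4 gates, 76 of 100 planted log2 changes of 1 and 99 of 100 of 2.5 were recovered at an adjusted p of 0.05, with 6 other calls. Changes were planted only in entries with a mean log2 value above that of 100. Noise was normal and independent between libraries, and no other group difference was present. These rates therefore do not cover lower genes or libraries that stand apart. Tables and figures were made with Python 3.11.15, pandas 2.3.3 and matplotlib 3.10.9.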

Additional observations from a re-analysis of the deposited data

How the results depend on the processing

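The alternatives changed the pseudocount (0.5 or 5) and the filter on low values (none, or 50 normalized counts), or used quantile normalization, eBayes without trend, the replicate block, fits of just the groups in a comparison, or 1 library fewer. No member that passed an adjusted p of 0.05 changed direction in any of them. Quantile normalization moved the median of all entries by at most 0.148 (Day 5 GFP-positive against Day 0), and raised the share of higher calls at an adjusted p of 0.05 from 28.2% to 38.7% between the Day 4 gates and from 23.6% to 35.2% between the Day 5 gates. With it, 4 further member values passed an adjusted p of 0.05: Bcl2 from Day 1 to Day 2, Bbc3 for Day 4 GFP-positive cells against Day 3 and for Day 5 GFP-positive cells against Day 0, and the change of the gate difference of Pmaip1, whose count went from 0 to 1. A filter of 50 gave 2 members (Mcl1 and Bak1) from Day 0 to Day 1. The replicate block gave 1 member (Cdkn1a) for Day 4 GFP-negative cells against Day 3 and changed no other call by an adjusted p of 0.05.

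In fits of only the groups compared, which have fewer libraries, the count at an adjusted p of 0.05 was 0 from Day 0 to Day 1 and 2 from Day 4 to Day 5 in GFP-positive cells (Cdkn1a and Bcl2). Under the stricter thresholds it was 1 from Day 0 to Day 3 and 0 between the Day 5 gates, and 12 p53 target genes were lower from Day 0 to Day 3. Leaving out single libraries gave 1 to 2 members at an adjusted p of 0.05 from Day 0 to Day 1, 2 to 6 from Day 1 to Day 2, 0 to 2 for Day 4 GFP-negative cells against Day 3, 1 to 3 from Day 4 to Day 5 in GFP-positive cells and 0 to 1 for the change of the gate difference. Under the stricter thresholds it gave 1 to 3 members from Day 0 to Day 3. Lower p53 target genes, an alternative added after seeing the data, numbered 7 to 13 for Day 4 GFP-positive cells against Day 3 and 5 to 11 between the Day 5 gates. Without single libraries, 14 of 242 values of members that passed no longer did; the causes were not tested. Bcl2 at 14.9 to 78.4 normalized counts on Days 0 and 1 had the widest intervals.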
